A study of Mus musculus with 4 samples.

Results

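The genes described here are 43 mouse genes of mTOR, AMPK and nutrient sensing, of 50600 genes in the count tables. They form a list of names of subunits, regulators and direct targets of the pathway, with no threshold on a measured value, and each symbol matched 1 gene identifier. The list was chosen with earlier results of these data known. By their textbook direction toward mTOR signalling, 20 are activators, 17 are inhibitors and 6 are downstream effectors.

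RNA was sequenced in 4 libraries of primary cells labelled regulatory T cell, from mice of the C57BL/6NJ strain, with replicate numbers 1 to 4. The labels give no allele, treatment or second group, the age is given as unknown, the sex was not collected, and all 4 biosamples share 1 donor record. The assay is given as total RNA-seq, while the cited library protocol is titled for poly(A)+ RNA, a differentiation protocol for CD4 T cells is cited too, and column names inside the files carry the words mmTreg and activated with a mark of 0 h. There is no control group, so genes were compared within each library, and errors and p-values reflect how far these 4 samples differ among themselves, which may be a technical spread.

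The kinase mTOR works in 2 complexes, mTORC1 with the adaptor Raptor and mTORC2 with Rictor, and mTORC1 drives protein synthesis and growth when amino acids, energy and growth factors are at hand. Amino acids act through the Rag GTPases on the lysosome, growth factors act through AKT and the TSC complex on the GTPase Rheb, and low energy acts through AMPK, which restrains mTORC1. In regulatory T cells, mTORC1 is known to be needed for suppressive function, while strong AKT and mTOR activity is known to hold back their differentiation from naive CD4 T cells.

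Depth ran from 23000465 counts in replicate 3 to 62090744 counts in replicate 2, and levels are given as TPM (counts per base of exon, scaled to the same total in each library), as mean ± SD with n = 4. The label was checked against markers. T cell markers were high, with Cd4 at 1067 ± 31.4 TPM, and so was the naive T cell marker Tcf7 at 2932 ± 117 TPM. Foxp3, which defines regulatory T cells, was at 8.28 ± 0.867 TPM, 5 of the 8 regulatory T cell markers were detected, and Il2ra ranged from 3.11 to 9.13 TPM and was called variable between libraries (edgeR adjusted p = 1.19e-07). Of the CD8 T cell markers, Cd8b1 was at 39.95 ± 2.55 TPM, above Foxp3 in every library, and Cd8a was at 0.794 TPM. The summed level of 5 B cell markers ranged from 24.2 to 103.3 TPM and all 5 were called variable, whereas the 4 myeloid markers summed to 3.07 to 5.18 TPM and none of 3 red cell markers was detected. The part of these cells in the levels below was not tested, and in bulk RNA fewer cells of a type and less RNA per cell cannot be told apart.

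Most of the pathway was expressed. With detection set at 1 TPM or more in all 4 libraries, 40 of the 43 genes were detected, against 45.7% of protein-coding genes and 23.1% of all genes. The exceptions were the inhibitor Deptor, the folliculin partner Fnip2 and the AMPK catalytic subunit Prkaa2. The median level of the 43 genes was 42.75 TPM, against 33.3 TPM for protein-coding genes that were detected. By mean TPM, 7 genes lay above 100 TPM, 28 between 10 and 100 TPM and 8 below 10 TPM.

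**Figure D1:**
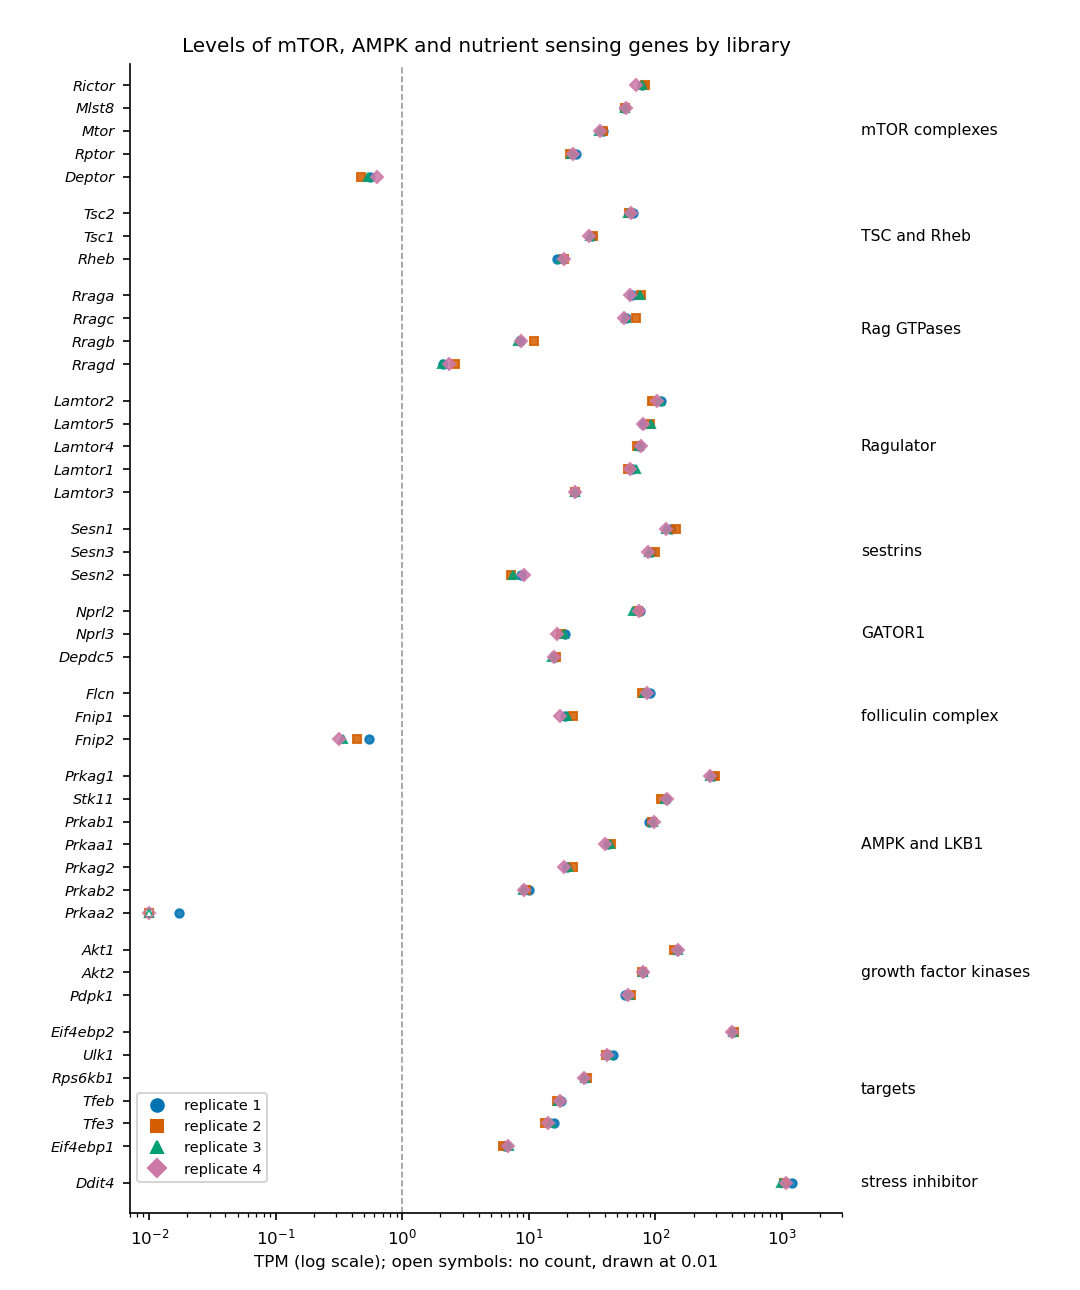
TPM of the 43 genes in each of 4 libraries on a log axis, grouped by role, with the 1 TPM detection level dashed. The replicates lie close together for most genes, Ddit4 is highest at 981.5 to 1195 TPM, and Deptor, Fnip2 and Prkaa2 lie left of the dashed line.

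The highest gene was Ddit4 (ENSMUSG00000020108.4, chr10:59949669-59951834, minus strand of mm10), which encodes REDD1, a stress-induced protein that restrains mTORC1 through the TSC complex. Its level was 1195, 1030.0, 981.5 and 1079 TPM in replicates 1 to 4, a mean of 1071 ± 91.6 TPM, above 99.5% of protein-coding genes. Replicate 1 was highest and replicate 3 lowest, and every library stood above every other gene of the set. Its relative Ddit4l had no count in any library. The next levels were those of Eif4ebp2 at 409.1 ± 5.73 TPM and Prkag1 at 279.4 ± 12.8 TPM, and this order of 3 held in all 4 libraries. Further down, the order of levels between neighbouring genes was less fixed, since 19 of 42 neighbouring pairs kept their order in all 4 libraries.

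Promoter windows were read from RefSeq (GRCm38.p6) to show the start sites of the highest gene and of the genes whose windows held a forkhead motif, the letters bound by FOXO factors, which AKT restrains. Windows of 250 bases before to 50 bases after a start site were found for 40 of the 43 genes, with 51 windows in all, and not for Deptor, Lamtor3 and Eif4ebp1. Both strands were searched. The forkhead letters GTAAACA were in 3 of the 51 windows, those of Akt1, Sesn1 and Stk11, against 3.65% of 32851 promoters. The letters TGATGNAA, taken for ATF4, were in 2 windows, those of Akt2 and Lamtor4, against 3.97% of promoters, and the letters TCACGTGA, taken for the MiT/TFE factors, were in 0 windows, against 0.974% of promoters. No window held more than 1 of these matches, so none overlapped, and a match describes letters only. The shorter letters CACGTG inside TCACGTGA were not searched for. They occur in some windows, such as those of Rragb, Rragc and Lamtor1, and their share among all promoters was not counted. The 200 bases printed run from 170 before to 30 after the start site, 5′ to 3′ on the gene's strand, with the forkhead letters or their reverse complement in capitals. The windows are chr10:59951741-59951940 (minus strand) for Ddit4, chr10:41810404-41810603 (plus strand) for Sesn1, chr10:80115625-80115824 (plus strand) for Stk11 and chr12:112674855-112675054 (minus strand) for Akt1.
Ddit4: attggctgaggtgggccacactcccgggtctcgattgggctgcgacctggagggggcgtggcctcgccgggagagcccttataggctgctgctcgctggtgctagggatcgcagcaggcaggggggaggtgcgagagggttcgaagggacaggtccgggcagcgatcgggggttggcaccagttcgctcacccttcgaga
Sesn1: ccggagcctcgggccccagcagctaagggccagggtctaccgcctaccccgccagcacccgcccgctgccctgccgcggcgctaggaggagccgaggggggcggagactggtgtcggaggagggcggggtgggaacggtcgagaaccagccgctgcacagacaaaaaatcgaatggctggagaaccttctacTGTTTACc
Stk11: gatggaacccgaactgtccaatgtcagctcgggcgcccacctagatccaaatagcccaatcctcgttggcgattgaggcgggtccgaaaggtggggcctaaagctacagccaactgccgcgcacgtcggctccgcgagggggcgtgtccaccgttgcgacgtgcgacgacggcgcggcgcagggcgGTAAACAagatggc
Akt1: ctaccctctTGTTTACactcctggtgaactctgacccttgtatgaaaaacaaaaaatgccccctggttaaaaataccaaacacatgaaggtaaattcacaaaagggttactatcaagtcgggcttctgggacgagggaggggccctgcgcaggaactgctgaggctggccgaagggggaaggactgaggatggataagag
The Ddit4 window held none of the 3 motifs. Counted from the start site, the first base of the match was at -161 in Akt1, at 22 in Sesn1 and at 16 in Stk11. Sesn1 and Akt1 each have a further window, in which no motif was found.

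Among the mTOR complexes, the kinase gene Mtor (chr4:148448611-148557683, plus strand) was at 38.7, 38.2, 35.7 and 36.7 TPM in replicates 1 to 4, a mean of 37.3 ± 1.38 TPM. Replicate 1 was highest and replicate 3 lowest, 1.08-fold apart. Mlst8, a subunit of both complexes, was at 57.7 ± 0.943 TPM, and 19.6% of its sequence words are shared with another gene. Rptor, which encodes Raptor of mTORC1, was at 23.4, 21.2, 21.4 and 22.2 TPM, against 77.6, 83.0, 77.7 and 70.4 TPM for Rictor of mTORC2. Rictor was higher in all 4 libraries, and the log2 ratio of Rptor to Rictor was -1.80 ± 0.135. That ratio was -0.77 when the length of the longest transcript replaced the exon length over all isoforms, which is 13471 bases for Rptor. Deptor, an inhibitor that binds mTOR, was at 0.559, 0.469, 0.540 and 0.629 TPM, from 241 counts over the 4 libraries.

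In the TSC arm, Tsc1 and Tsc2 encode the complex that switches Rheb off. Tsc1 was at 31.4, 32.4, 30.7 and 29.7 TPM, against 66.9, 61.5, 60.5 and 64.3 TPM for Tsc2. Tsc1 was lower in every library, with a log2 ratio of Tsc1 to Tsc2 of -1.03 ± 0.0898, which was -0.35 with the longest transcript. Rheb, the GTPase that switches mTORC1 on, was at 16.67, 18.86, 17.99 and 18.90 TPM, lower in each library than both TSC genes. This order depends on length, because Rheb has 7721 exon bases over all isoforms and 1784 bases in its longest transcript, and with the transcript length its level was 56.6 ± 3.24 TPM, above Tsc2 at 43.9 ± 2.00 TPM. Rheb made up 51.5% ± 3.75 of the summed TPM of Rheb and its relative Rhebl1, and 74.9% ± 2.85 with the longest transcript.

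Rag GTPases work as dimers of RagA or RagB with RagC or RagD, and 1 gene dominated each side. Rraga was at 64.8, 77.2, 75.3 and 63.0 TPM, against 8.48, 10.9, 8.23 and 8.65 TPM for Rragb, so Rraga held 88.5% ± 1.12 of the RagA and RagB message. Rragc was at 58.9, 69.6, 58.5 and 56.2 TPM, against 2.10, 2.59, 2.06 and 2.35 TPM for Rragd, so Rragc held 96.4% ± 0.281 of the RagC and RagD message. All 4 Rag genes were highest in replicate 2, the library in which 38.7% of all detected genes were highest. The log2 ratio was 2.94 ± 0.164 for Rraga to Rragb and 4.68 ± 0.110 for Rragc to Rragd. The sum of RagA and RagB, at 73.3, 88.1, 83.5 and 71.6 TPM, was above that of RagC and RagD, at 61.0, 72.2, 60.5 and 58.5 TPM, in all 4 libraries. With the longest transcript the sums were 57.1 ± 5.74 TPM for RagA and RagB and 58.2 ± 5.74 TPM for RagC and RagD.

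The Ragulator, which anchors the Rags to the lysosome, was detected in all 5 of its genes. Lamtor2 was highest at 111.2, 94.4, 109.5 and 102.5 TPM. Lamtor5 was at 85.4 ± 6.61 TPM, Lamtor4 at 74.0 ± 2.39 TPM and Lamtor1 at 64.8 ± 3.84 TPM. Lamtor3 was lowest at 23.08, 23.07, 22.96 and 23.16 TPM, with a coefficient of variation of 0.374%. The highest level was 4.53 times the lowest, and 2.57 times with the longest transcript. With that length the order within the complex changed, with Lamtor1 at 134.4 TPM, Lamtor4 at 79.3 TPM and Lamtor5 at 61.8 TPM. These counts leave out fragments that align at several places, and 27.1% of the words of Lamtor1, 15.6% of Lamtor5 and 14.2% of Lamtor3 are shared with other genes. Such words can also belong to a gene that overlaps at the same place, so how far these levels are affected is uncertain and was not tested.

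The genes that inhibit the Rags include GATOR1, which switches RagA and RagB off, and the sestrins, which hold back the Rags when leucine is low or stress is present. In GATOR1, Nprl2 was at 75.2, 72.5, 65.9 and 73.6 TPM, against 19.2, 18.1, 19.0 and 16.7 TPM for Nprl3. Nprl2 was higher in every library, with a log2 ratio of Nprl2 to Nprl3 of 1.97 ± 0.141, or 1.06 with the longest transcript. Depdc5, the subunit that carries the GTPase-activating function, was at 15.9 ± 0.459 TPM. Nprl3 shares 18.3% of its words with other genes.

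Among the sestrins, Sesn1 (chr10:41809935-41908424, plus strand) was at 132.2, 146.4, 121.8 and 120.9 TPM. Sesn2, the sestrin best known as a leucine sensor, was at 8.597, 7.225, 7.545 and 9.154 TPM, and Sesn3 was at 92.9, 99.2, 89.0 and 87.6 TPM. Sesn2 was lowest in every library, at 3.55% ± 0.559 of the summed sestrin message, with a log2 ratio of Sesn1 to Sesn2 of 3.99 ± 0.254. The order of Sesn1 and Sesn3 is not settled by these counts. Their log2 ratio was 0.50 ± 0.0498 per exon base, but -0.18 with the longest transcript and -1.44 in CPM without a length, since Sesn3 has 15269 exon bases and Sesn1 has 3982.

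Folliculin, with a FNIP partner, acts on RagC and RagD and supports mTORC1 at the lysosome. Flcn was at 90.1, 77.8, 81.0 and 85.6 TPM. Its partner Fnip1 was at 19.4, 22.4, 19.9 and 17.5 TPM, against 0.543, 0.437, 0.340 and 0.314 TPM for Fnip2. Fnip1 held 97.98% ± 0.480 of the FNIP message, with a log2 ratio of Fnip1 to Fnip2 of 5.31 ± 0.262. Fnip2 rests on 163 counts over the 4 libraries.

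AMPK is a trimer of a catalytic alpha, a scaffold beta and a nucleotide-binding gamma subunit, and each class came mostly from its first gene. Prkaa1 (chr15:5143861-5181899, plus strand) was at 42.3, 44.6, 43.5 and 39.7 TPM. Prkaa2 (chr4:105029874-105109890, minus strand) had 1 count in replicate 1 and none in the others, where 3 counts, the limit that a count of 0 allows, would be 0.0210 to 0.0564 TPM. Over all libraries Prkaa1 had 9734 counts and Prkaa2 had 1, a ratio per exon base of 16700 with a 95% exact interval of 2990 to 658000 that covers counting error only. The mean log2 ratio of 8.68 is set by the 0.1 TPM that was added.

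The beta and gamma subunits showed the same kind of order. Prkab1 was at 89.5, 93.1, 95.5 and 98.2 TPM, against 9.996, 9.439, 8.967 and 9.188 TPM for Prkab2. Prkag1 was at 283.6, 295.6, 270.9 and 267.4 TPM, against 20.0, 22.4, 20.4 and 18.8 TPM for Prkag2, and Prkag3 had no count. The first gene of each pair was higher in every library, with 90.9% ± 0.699 of the beta message for Prkab1 and 93.2% ± 0.264 of the gamma message for Prkag1. The log2 ratios were 3.31 ± 0.119 for Prkab1 to Prkab2 and 3.77 ± 0.0598 for Prkag1 to Prkag2, the second of which was 2.80 with the longest transcript. Prkag1 shares 33.5% of its words with another gene. Stk11, which encodes LKB1, the kinase that activates AMPK, was at 122.2, 110.7, 119.5 and 123.0 TPM.

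Summed by class, the catalytic message was lowest. The alpha genes summed to 42.5 ± 2.08 TPM, the beta genes to 103.5 ± 3.30 TPM and the gamma genes to 299.8 ± 14.1 TPM. This order held in all 4 libraries, and with the longest transcript the sums were 30.7 ± 1.51, 106.5 ± 3.55 and 228.5 ± 11.1 TPM.

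**Figure D2:**
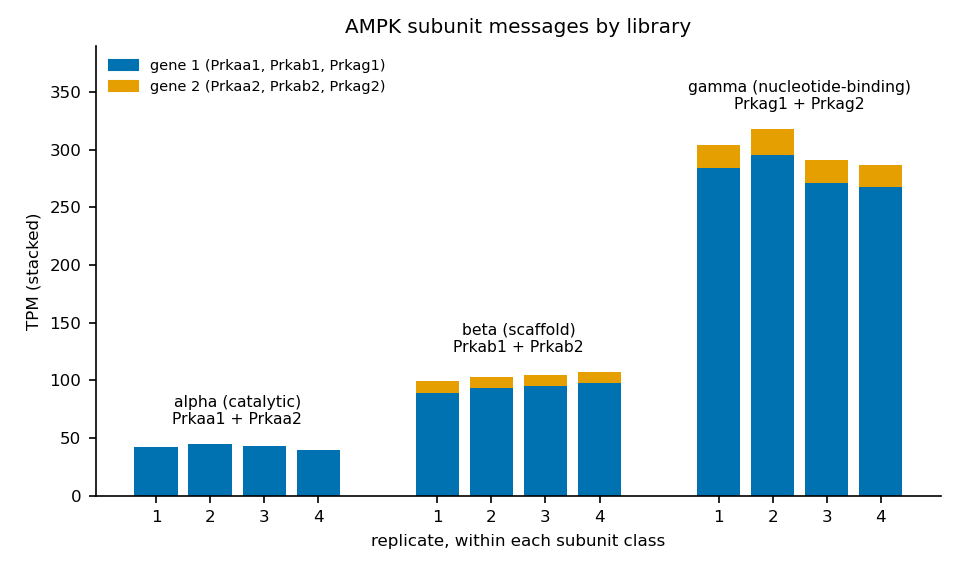
Stacked TPM of the 2 genes of each AMPK subunit class in replicates 1 to 4. The alpha sum lies between 39.7 and 44.6 TPM, the beta sum between 99.5 and 107.3 TPM and the gamma sum between 286.2 and 318 TPM, and the first gene fills most of each bar.

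In the growth factor arm, PDK1 and AKT carry signals from PI3K, and AKT inhibits TSC2. Akt1 was at 148.0, 140.6, 151.1 and 150.3 TPM, against 79.2, 78.3, 80.0 and 79.1 TPM for Akt2. Akt1 was higher in each library, with a log2 ratio of Akt1 to Akt2 of 0.90 ± 0.0366. Pdpk1, which encodes PDK1, was at 61.1 ± 2.37 TPM. Akt2 shares 20.7% of its words with a pseudogene.

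Among the targets, the 4E-BP proteins bind the cap-binding factor eIF4E until mTORC1 phosphorylates them. Eif4ebp1 was at 6.52, 6.24, 6.96 and 6.79 TPM, against 409.1, 417.1, 406.7 and 403.7 TPM for Eif4ebp2 (chr10:61428491-61452661, minus strand). Eif4ebp2 was higher in every library and held 98.4% ± 0.0940 of their message, with a log2 ratio of Eif4ebp1 to Eif4ebp2 of -5.93 ± 0.0865. Rps6kb1, which encodes the S6 kinase S6K1, was at 27.8 ± 0.722 TPM and made up 29.6% ± 1.33 of the S6 kinase message, the rest being Rps6kb2, but 55.2% ± 1.58 with the longest transcript. Ulk1, an autophagy kinase inhibited by mTORC1, was at 42.8 ± 2.17 TPM, or 52.6% ± 2.89 of the message of Ulk1 and Ulk2.

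Tfeb and Tfe3 encode lysosomal transcription factors that mTORC1 keeps in the cytoplasm. Tfeb was at 17.9, 16.7, 17.0 and 17.7 TPM, against 15.7, 13.5, 14.8 and 14.2 TPM for Tfe3. Tfeb was higher in each library, with a log2 ratio of 0.25 ± 0.0689, but this was 0.08 with the longest transcript and -0.45 in CPM, so the order is not settled by these counts. Their relative Mitf held 4.52% ± 0.306 of the message of the family, and Tfec had no count.

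Over all 14 pairs of related genes, each log2 ratio had its sign in 4 of 4 libraries. An exact two-sided sign-flip permutation test gave p = 0.125 for each pair, and 0.125 after Benjamini-Hochberg adjustment over the 14, which is the smallest value that 4 libraries allow, so no pair could pass 0.05. The SD of the ratio ran from 0.0366 for Akt1 to Akt2 to 0.262 for Fnip1 to Fnip2, smaller than the mean ratio in every pair.

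**Figure D3:**
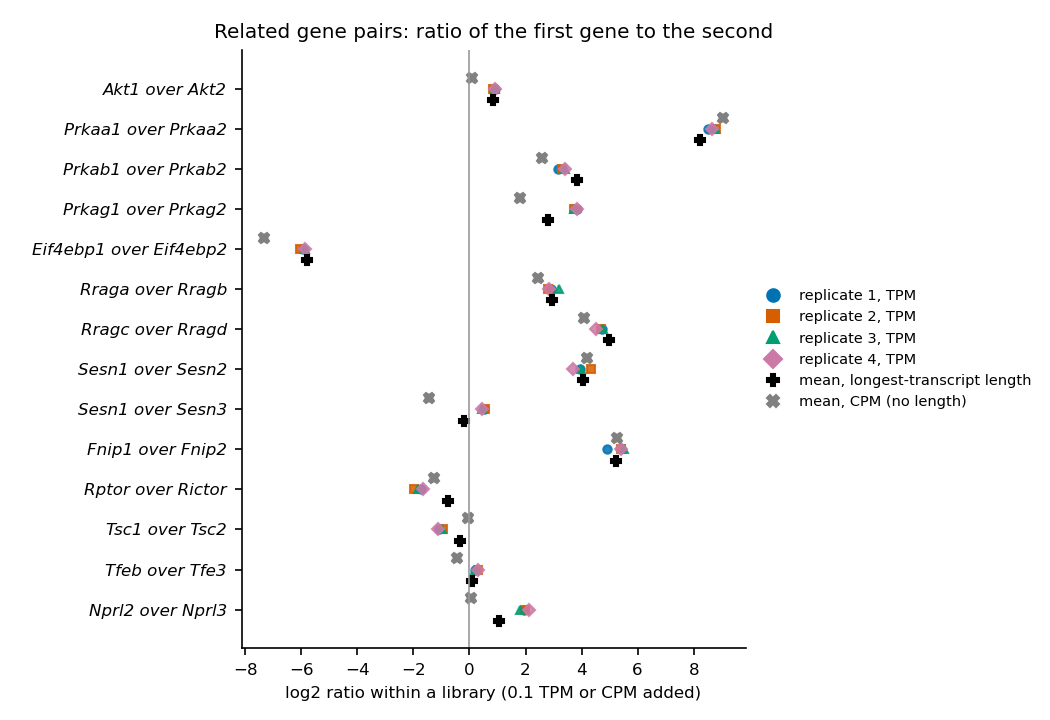
Log2 ratio of the first to the second gene of 14 pairs in each of 4 libraries from TPM, with the means for the longest-transcript length (black) and for CPM (grey). Most pairs keep their side of 0, while Sesn1 over Sesn3 changes side under both alternatives and Tfeb over Tfe3 in CPM.

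Activators and inhibitors were then set side by side within each library. The median level was 58.4, 62.3, 60.1 and 60.0 TPM for the 20 activators in replicates 1 to 4, against 42.3, 44.6, 43.5 and 39.7 TPM for the 17 inhibitors. Activators had the higher median in all 4 libraries, by 0.50 ± 0.0616 on the log2 scale. The difference rests on a few genes and on the scale, since it was -0.046 with detected genes only, which leaves out Deptor, Prkaa2 and Fnip2, and -0.24 in CPM. The summed level ran the other way, at 1098 TPM for the activators and 2067 TPM for the inhibitors, of which Ddit4 alone supplied 1071 TPM. The 6 effectors had a median of 22.6 TPM.

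**Figure D4:**
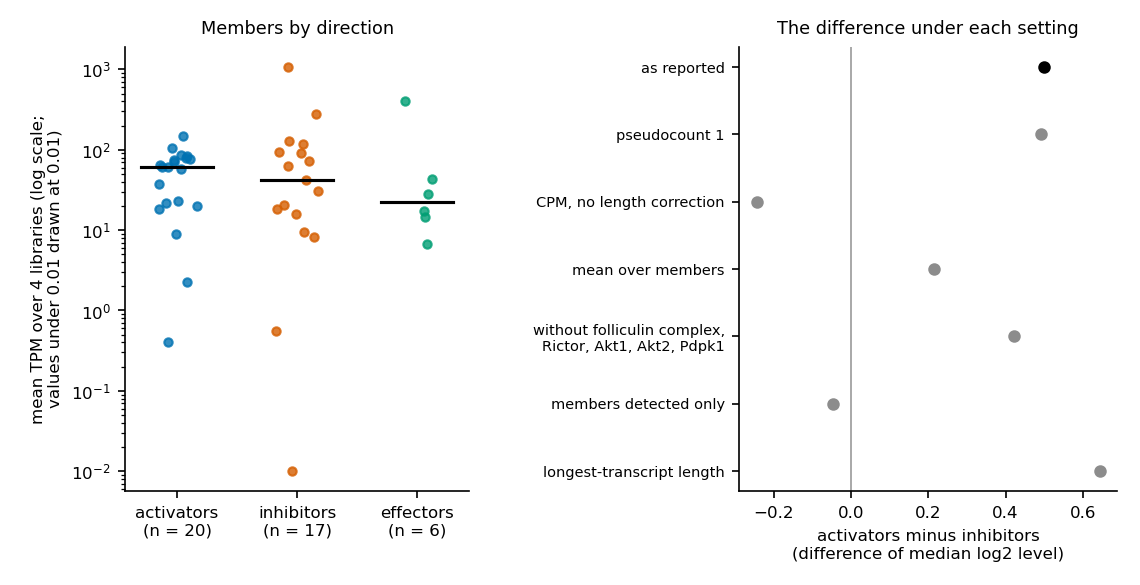
Left, mean TPM of each gene by direction on a log axis, with the group median as a bar. Right, the median log2 level of activators minus that of inhibitors under each setting, which lies between -0.24 and 0.64 and is 0.50 as reported.

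No gene of the set was called variable between libraries. In edgeR's test of the residual deviance around a single mean, 0 of 42 genes tested passed an adjusted p of 0.05, against 142 of 12554 genes (1.13%), and Prkaa2 was not tested. At an unadjusted p of 0.05 the set had 0 genes, against 657 of all genes tested, and the smallest unadjusted p in the set was 0.201, for Rragc. DESeq2's dispersion trend gave 0 genes of the set as well, with a smallest p of 0.0639. The median range between the highest and the lowest library was 0.17 for the set and 0.22 for all genes tested, in log2(CPM + 1). The trend of spread was fitted to the same 4 libraries, so the test asks whether a gene spreads more than genes at a similar level. Spread that most genes share is not called. A p that misses the threshold does not show that the libraries were alike.

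The steadiest and the loosest genes can be named from the same range. Eif4ebp2 had a range of 0.015 and Rps6kb1 of 0.038 in log2(CPM + 1). The widest ranges on this scale were those of Fnip2 at 0.38, Sesn2 at 0.36 and Rragb at 0.31, genes with low counts, while Ddit4 had a range of 0.27. The added 1 narrows the range of genes at low levels. As highest over lowest TPM, Fnip2 was at 1.73, Deptor at 1.34, Rragb at 1.32, Fnip1 at 1.28 and Sesn2 at 1.27. Of the 40 genes detected, replicate 2 was highest for 16 and replicate 1 for 12, against 38.7% and 26.9% of all detected genes, while replicate 4 was highest for 7 and replicate 3 for 5, against 13.4% and 21.1%.

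**Figure D5:**
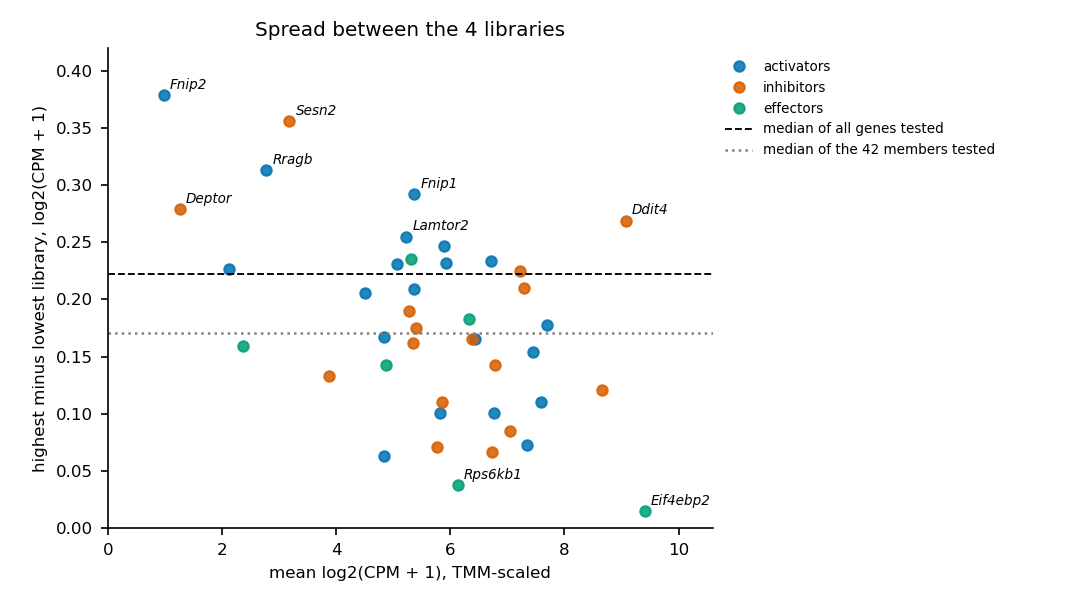
Highest minus lowest library in log2(CPM + 1) against mean level for the 42 genes tested, by direction, with the medians of these genes (dotted, 0.17) and of all genes tested (dashed, 0.22). Fnip2, Sesn2 and Rragb, at low levels, have the widest ranges and Eif4ebp2 the narrowest.

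The rest of the pathway was examined in 7 lists of 84 genes. Of these, 75 were detected, against 45.7% of protein-coding genes and 23.1% of all genes. For spread, 76 were tested and 0 were called variable by edgeR, against 1.13% of all genes tested. At an unadjusted p under 0.05 there were 2, against 657 of 12554 genes. Those 2, named only to complete the count, were Pik3ip1, an inhibitor of PI3K, with 248.1, 260.4, 181.1 and 191.7 TPM (unadjusted p = 0.00354, edgeR adjusted p = 0.199), and Atg101, a subunit of the ULK complex, with 61.6, 65.4, 81.9 and 77.5 TPM (unadjusted p = 0.0229, edgeR adjusted p = 0.640). Neither passed the adjusted threshold.

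Of 7 other mTOR complex and assembly genes, 5 were detected. Tti1, of the complex that folds and assembles mTOR, was at 48.3 TPM, Mapkap1, which encodes the mTORC2 subunit Sin1, at 42.99 TPM, and Akt1s1, which encodes the mTORC1 inhibitor PRAS40, at 35.3 TPM. The mTORC2 partners Prr5 and Prr5l were at 0.432 and 0.172 TPM. Of 15 other amino acid sensing genes, 14 were detected. Among the highest were Sec13, a GATOR2 subunit, at 89.0 TPM and the leucyl-tRNA synthetase gene Lars at 74.4 TPM. The lowest were Castor2, related to the arginine sensor, at 13.4 TPM and the ubiquitin ligase gene Rnf152 at 0.0307 TPM.

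All 16 genes of the PI3K and AKT arm were detected. Pik3cd, which encodes the leukocyte PI3K catalytic subunit p110δ, was highest at 701.0 to 753.8 TPM, before Pik3r5 at 279.2 TPM and Pik3ip1 at 220.3 TPM. The lowest were Tbc1d7, the further subunit of the TSC complex, at 7.10 TPM and the AKT phosphatase gene Phlpp2 at 3.14 TPM. Of 20 AMPK-related kinases, LKB1 partners and AMPK substrates, 18 were detected. Mark2 was at 189.8 to 213.8 TPM, the CREB coactivator gene Crtc2 at 118.3 TPM and Cab39, which encodes the LKB1 partner MO25, at 116.3 TPM, while Nuak1 was at 0.0211 TPM and Prkag3 had no count.

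Of 11 translation and growth targets, 10 were detected. Rps6, the ribosomal protein phosphorylated by S6 kinases, was at 1249 ± 65.8 TPM, Pdcd4, a translation inhibitor degraded after S6 kinase signalling, at 597.5 TPM, and the initiation factor gene Eif4b at 558.9 TPM. The lowest were Eef2k, the kinase of elongation factor eEF2, at 7.76 TPM and the adaptor gene Grb10 at 0.0206 TPM. Of 8 ULK complex genes and MiT/TFE partners, 6 were detected, led by Atg101 at 71.6 TPM, Atg13 at 65.0 TPM and the lysosomal channel gene Mcoln1 at 40.3 TPM, with Gpnmb at 0.970 TPM and Tfec without a count. Of 7 stress inputs, 6 were detected. Atf4, a transcription factor of the amino acid response, was at 301.0 ± 13.2 TPM, Trp53, the p53 gene, at 215.5 TPM and Foxo1 at 178 TPM, while Trib3 was at 12.4 TPM and Ddit4l had no count.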

How the data were processed

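RNA-seq of 4 libraries of 1 group was used. The deposited values are raw counts of fragments per gene, counted per the file headers by featureCounts (version 1.4.6-p4) on mm10 with GENCODE M13 exons, from paired reads aligned with STAR, with strand setting 2. Per the file headers no option for fragments with several alignments was set, so these are missing. The gene symbols came from GENCODE M21 by identifier (50376 of 50600 genes). Members, lists and pairs were chosen with earlier results of these data known.

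TPM was computed here from counts and the deposited exon length, and ratios used TPM plus 0.1. The added alternative of the longest M21 transcript was chosen after seeing the data. For spread, edgeR (4.0.16, under R 4.3.3) fitted an intercept-only quasi-likelihood model after filterByExpr and TMM, and each gene's residual deviance at the trend was compared with a chi-square distribution of 3 degrees of freedom, with Benjamini-Hochberg adjustment, and with DESeq2 1.42.0 as an alternative. The edgeR step was tested on simulated data with genes changed in 1 library. It recovered 19 of 67 genes at 1.5-fold, 51 of 67 at 2-fold and 62 of 66 at 3-fold, so smaller changes are mostly missed. Shared words are those of 50 bases, sampled every 10, that another gene's transcripts hold on either strand. They can include words of a gene that overlaps at the same place, so a shared word alone does not show that fragments were left out. Depth was 25573253, 62090744, 23000465 and 61943411 counts in replicates 1 to 4, and intervals cover counting error only. Named genes are all 43 members and the 3 highest and 2 lowest of each list; Pik3ip1, Atg101 and relatives of members in the message shares were named beside them, after their values were seen. Some results that this rule includes are not reported here. Protein sequences were not used here. Other values came from scipy 1.17.1, numpy 2.4.6 and pandas 2.3.3 in Python 3.11.15, with matplotlib 3.10.9 for plots.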

Additional observations from a re-analysis of the deposited data

Results flagged for a closer look

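Of 58 values examined for an outlying library, 3 had a library far from the other three, and chance flags about 1 in 20 such groups of 4. Rragb was at 10.9 TPM in replicate 2, with the nearest other library at 8.65 TPM and a gap of 0.841 of the whole range. Prkaa2 was at 0.0173 TPM in replicate 1, from a single count, with none in the other libraries. The median log2 level of activators minus that of inhibitors was 0.5918 in replicate 4, with the nearest other library at 0.4822 and a gap of 0.854 of the range.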

How the results depend on the processing

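The count of genes detected stayed between 39 and 41 of 43 under every threshold, unit and length tried. No gene of the set that was tested was called variable under any setting. The main setting tested 42 of them, the setting without a filter 43 and that of at least 5 CPM 38. The median level of the set in a library averaged 43.82 TPM over the libraries, and 49.1 TPM over nuclear protein-coding genes only. The log2 ratio of Sesn1 to Sesn3 was -1.44 in CPM and -0.18 with the longest transcript, and that of Tfeb to Tfe3 was -0.45 in CPM. These changes follow from the length used. In CPM the log2 ratios of Akt1 to Akt2, Nprl2 to Nprl3 and Tsc1 to Tsc2 came near 0, at 0.099, 0.065 and -0.053. The 12 pairs other than Sesn1 to Sesn3 and Tfeb to Tfe3 kept the direction of their mean ratio under these settings, with a pseudocount of 1 and without each replicate. Single libraries could differ without a length. Tsc1 had 6710 counts in replicate 2 against 6489 for Tsc2, and Nprl2 had 885 in replicate 3 against 959 for Nprl3. Activators minus inhibitors was -0.24 in CPM, 0.21 as a mean over genes, 0.42 without the folliculin complex, Rictor, Akt1, Akt2 and Pdpk1, -0.0457 with detected genes only and 0.64 with the longest transcript, against 0.50, and the cause was not tested. Among all genes, 142 were called variable, against 74 at an adjusted p of 0.01, 88 without a filter, 63 at a mean of at least 5 CPM and 60 to 85 without 1 replicate. Lengths moved single levels by factors of 0.63 (Mlst8) to 3.12 (Rheb), by more than 1.5 times upward in 6 genes and downward in Mlst8. Depth limits Prkaa2, which has 1 count in all. No paired analysis was possible because there was 1 group.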
